A study of Rattus norvegicus and Mus musculus with 12 samples.

Results

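The SOX and RUNX genes studied here encode transcription factors of the chondrocyte lineage, and their mRNA levels were followed in rat and mouse chondrocytes with and without IL-1β. The members were found by gene symbol in the deposited tables: Sox9 and Sox8 (SOXE factors), Sox5 and Sox6 (SOXD), Sox4 and Sox11 (SOXC), Runx1, Runx2 and Runx3, and Cbfb, the shared partner of the RUNX proteins. All 10 were found among the 28603 mouse genes and 9 among the 19687 rat genes, and Sox4 was not analysed in rat. The 12 RNA-seq libraries came from cultures of articular chondrocytes at the first passage, taken from newborn rats (strain label SD) and newborn mice. The RC and MC groups were untreated controls of rat and mouse, and the RM and MM groups had received IL-1β, an inflammatory cytokine, at 20 ng/ml over 24 h, with 3 libraries in each group. The strain labels of the mouse libraries run from C57BL/6 to C57BL/9, although the methods name C57BL/6 for every mouse. The methods call the samples of a group independent but do not say whether they came from separate animals or cultures, so P values measure the spread between these libraries.

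SOX9 is the factor that specifies chondrocytes, and with SOX5 and SOX6, which lack an activation domain and bind DNA beside it, it switches on the genes of cartilage collagens and aggrecan. RUNX2 drives chondrocyte hypertrophy and bone formation, RUNX1 and RUNX3 bind the same DNA motif, and CBFβ raises the affinity of all RUNX proteins for DNA. Loss of SOX9 activity and gain of hypertrophic traits are widely studied in osteoarthritis.

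Library totals ran from 16841580 to 25903459 counted reads. Within a species, the model libraries were tested against the controls by edgeR's quasi-likelihood test after TMM scaling, and P was adjusted by Benjamini-Hochberg over all genes tested. The TMM factors were 0.9941 to 1.008 in rat, whereas MC libraries had 1.099 to 1.104 and MM libraries 0.905 to 0.9105. Scaling by library size alone moved the mouse median over all genes (log2) from -0.02 to -0.30. With library size alone, 3697 of the 11774 genes called in mouse were higher, against 5521 of 11085 with TMM. Levels are given as FPKM, the count per gene length and library total, which is scaled by library size. FPKM levels were not compared between the species, since each table has its own scaling and gene lengths. For Runx1, for example, the length behind the FPKM was 2266 bases in rat and 12025 in mouse. The spread between replicates (biological coefficient of variation) was 0.106 in rat and 0.0318 in mouse, and RC replicate 1 differed more from the other RC libraries than these did from each other (chi-square per degree of freedom of their counts 32.2 and 18.3 against 14.1).

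In rat, 5 of the 9 members had an adjusted P under 0.05, 1 of them higher (Runx1) and 4 lower (Sox9, Sox8, Sox6 and Runx2) in the RM group. Over all rat genes tested, 35.1% passed this test, 18.3% higher and 16.8% lower. In mouse, all 10 members passed, 4 higher (Sox5, Sox11, Runx1 and Runx3) and 6 lower (Sox9, Sox8, Sox6, Sox4, Runx2 and Cbfb) in the MM group, against 75.0% of all mouse genes tested, 37.4% higher and 37.7% lower. The FPKM of control and model libraries did not overlap for 6 of 9 members in rat, 1 higher and 5 lower, against 47.8% of all genes (25.5% higher, 22.3% lower). In mouse this held for 10 of 10 members, 4 higher and 6 lower, against 80.3% (25.4% higher, 54.9% lower). The difference between the species (mouse change less rat change) was tested over all genes with a common symbol, in 1 model. Of 9 members 8 passed, 4 above and 4 below 0, against 63.7% of all shared genes (31.6% above, 32.2% below). Sox8, which in mouse passed the filter on low counts only through the MC group, is in these mouse and difference counts. The DEG criteria of the methods were read as an absolute log2 fold change of at least 0.85, an FPKM of 1 or more in some library and P under 0.05 before adjustment. They called 6 of 10 members in mouse, 4 higher and 2 lower, against 25.6% of all genes (12.6% higher, 13.0% lower), and 0 of 9 in rat, against 8.54% (4.64% higher, 3.90% lower). For the difference between the species they called 7 of 9, against 28.7% (13.2% above, 15.5% below). In rat, 5 members had an unadjusted P under 0.05 by edgeR, and the largest absolute log2 fold change was 0.68. DESeq2 and limma also left 5 members with an unadjusted P under 0.05 and 0 past the DEG criteria. The share of all rat genes with an unadjusted P under 0.05 is not given here. By edgeR it was at least the 35.1% with an adjusted P under 0.05. Whether 5 of 9 members is more than this share was therefore not tested.

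**Figure D1:**
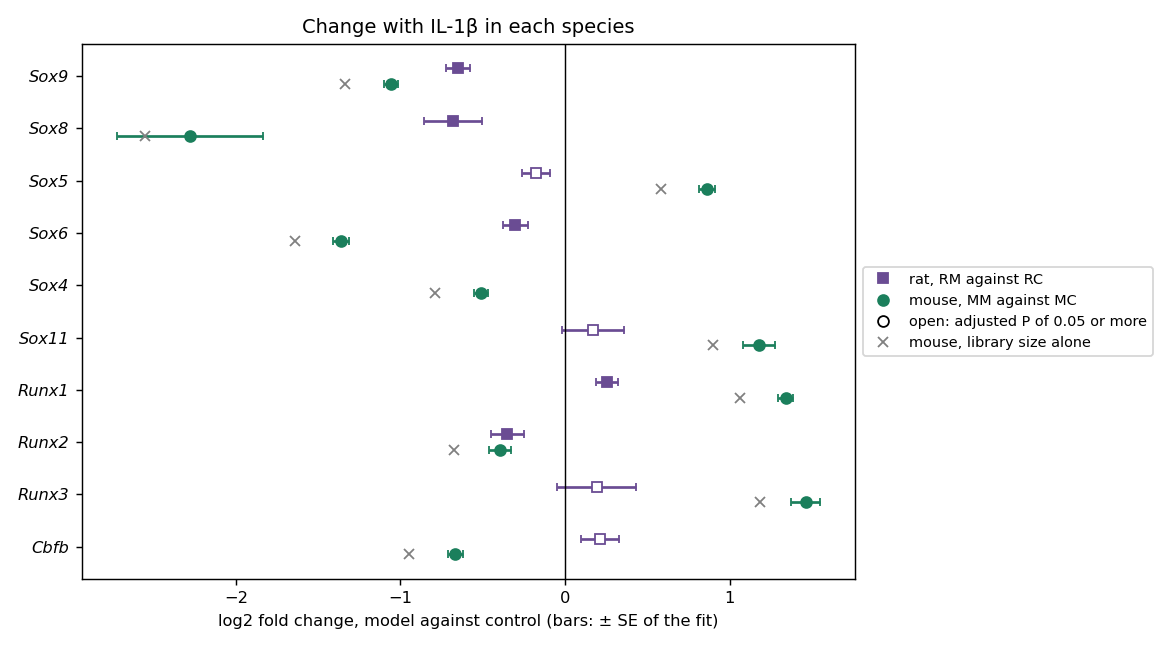
Log2 fold change of each member (rows) in the model against the control group, in rat (squares) and mouse (circles), with the standard error of the fit as bars; filled symbols have an adjusted P under 0.05, and grey crosses give the mouse value without TMM factors. Sox9, Sox8, Sox6 and Runx2 lie left of 0 in both species, whereas Sox5 lies at 0.86 in mouse and -0.18 in rat.

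Sox9 expression was downregulated in both species, and more in mouse. In rat (ENSRNOG00000002607) its FPKM was 27.7, 28.4 and 28.3 in the RC libraries and 17.01, 18.8 and 18.6 in the RM libraries. In mouse (ENSMUSG00000000567) it was 42.1, 42.6 and 43.7 in the MC libraries and 15.8, 16.7 and 18.5 in the MM libraries. The control and model libraries thus lay apart in both species, and Sox9 was the member with the highest mean FPKM in both control groups. The fall was 1.57-fold in rat (log2 fold change -0.65, SE 0.072, adjusted P = 7.08e-05) and 2.08-fold in mouse (log2 fold change -1.06, SE 0.042, adjusted P = 1.78e-32). The difference between the species was -0.40 (SE 0.086, adjusted P = 0.000591 by edgeR). Mouse Sox9 lies on chromosome 11 from 112782224 to 112787760 on the plus strand (GRCm38, GENCODE M21). In these bulk libraries, fewer cells of a type and less RNA per cell cannot be told apart.

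Sox8, the relative of Sox9 in the SOXE group, was weakly expressed and also fell in both species. In rat (ENSRNOG00000018841) its FPKM was 1.54, 1.59 and 1.49 in the RC libraries and 1.04, 0.797 and 1.08 in the RM libraries, a log2 fold change of -0.68 (SE 0.18, adjusted P = 0.0129). The rat call was lost without RM replicate 2 (log2 fold change -0.55, adjusted P = 0.0563). In mouse (ENSMUSG00000024176, chromosome 17, 25565892 to 25570686, minus strand) it rested on few reads, with 19, 31 and 21 counts in the MC libraries and 3, 7 and 3 in the MM libraries. All MM libraries were below all MC libraries, with a log2 fold change of -2.28 (SE 0.44, adjusted P = 6.07e-06), but the gene passed the filter on low counts only through the MC group. An antisense gene, 2810468N07Rik, shares 329 exonic bases with it and had 142 counts over the mouse libraries, and the strand setting of the counting is not given, so these reads cannot be told apart. The difference between the species was -1.59 (SE 0.45, adjusted P = 0.00492) and was not called by limma on log2(FPKM + 1), where it was -0.055 (adjusted P = 0.651).

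The SOXD genes moved apart in mouse. Sox6 fell 2.57-fold while Sox5 rose 1.82-fold, although their proteins are close relatives that act together on cartilage genes. In mouse, the FPKM of Sox6 (ENSMUSG00000051910) was 7.64, 7.75 and 8.08 in the MC libraries and 2.38, 2.55 and 2.62 in the MM libraries. That of Sox5 (ENSMUSG00000041540) was 3.76, 3.75 and 3.80 in the MC libraries and 5.39, 5.70 and 5.89 in the MM libraries. Neither gene overlapped between the groups, and the order of the genes was exchanged, with Sox6 above Sox5 in every MC library and below it in every MM library. The log2 fold changes were -1.36 for Sox6 (SE 0.047, adjusted P = 1.38e-35) and 0.86 for Sox5 (SE 0.047, adjusted P = 1.65e-25). With library size alone, these were -1.64 and 0.58. Without 1 library Sox5 ran from 0.84 to 0.90, so its place above the 0.85 of the DEG criteria is not firm. Mouse Sox5 lies on chromosome 6 (143828425 to 144781977, minus strand) and Sox6 on chromosome 7 (115470872 to 116038796, minus strand). The antisense gene Sox5os1 shares 1330 exonic bases with Sox5 and had 1 count over the mouse libraries.

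In rat, Sox6 fell 1.23-fold and Sox5 was not called. Sox6 (ENSRNOG00000020514) had an FPKM of 10.1, 10.5 and 11.2 in the RC libraries and 8.81, 8.88 and 8.41 in the RM libraries. That is a log2 fold change of -0.30 (SE 0.078, adjusted P = 0.0129), and the call was lost without RC replicate 3 (-0.26, adjusted P = 0.0583) or RM replicate 3 (-0.27, adjusted P = 0.0603). Sox5 (ENSRNOG00000027869) had an FPKM of 12.04, 10.8 and 10.7 in the RC libraries and 10.3, 10.3 and 9.30 in the RM libraries. These groups lay apart by a narrow margin, and Sox5 was not called, with a log2 fold change of -0.18 (95% interval of the fit -0.36 to 0.011, adjusted P = 0.131). The difference between the species was 1.04 for Sox5 (SE 0.095, adjusted P = 5.65e-08) and -1.06 for Sox6 (SE 0.089, adjusted P = 2.03e-08).

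The ratio of Sox5 to Sox6 within a library, which does not depend on the scaling of libraries, was 0.492, 0.484 and 0.470 in the MC libraries and 2.26, 2.23 and 2.25 in the MM libraries. The ratio was 4.67-fold higher in the MM group, and the groups did not overlap. In rat it was 1.19, 1.03 and 0.951 in the RC libraries and 1.17, 1.16 and 1.10 in the RM libraries, so that the groups overlapped (1.09-fold, exact two-sided permutation test, P = 0.4). With 3 libraries against 3 this test cannot give a P under 0.1, which is the value it gave in mouse.

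The SOXC genes, which are known for roles in progenitor cells and in the survival of skeletal cells, also went in different directions in mouse. Sox4 (ENSMUSG00000076431, chromosome 13, 28948919 to 28953713, minus strand) had an FPKM of 21.4, 22.7 and 21.6 in the MC libraries and 12.5, 13.2 and 12.3 in the MM libraries. It fell 1.42-fold, with a log2 fold change of -0.51 (SE 0.044, adjusted P = 2.32e-16). The antisense gene Gm26735 shares 2616 of the 4795 exonic bases of Sox4 and was not analysed here. Sox11 (ENSMUSG00000063632, chromosome 12, 27334264 to 27342574, minus strand) rose from an FPKM of 1.11, 1.47 and 1.61 to 2.63, 2.69 and 2.51, a log2 fold change of 1.18 (SE 0.095, adjusted P = 1.92e-17). Every MM library was above every MC library for Sox11 and below it for Sox4. In rat, Sox11 (ENSRNOG00000030034) had an FPKM of 1.28, 1.54 and 1.48 in the RC libraries and 1.43, 1.65 and 1.81 in the RM libraries. These groups overlapped, and the log2 fold change was 0.17 (95% interval -0.25 to 0.59, adjusted P = 0.517). The change of Sox11 in mouse exceeded that in rat by 1.00 on the log2 scale (SE 0.21, adjusted P = 0.000474).

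**Figure D2:**
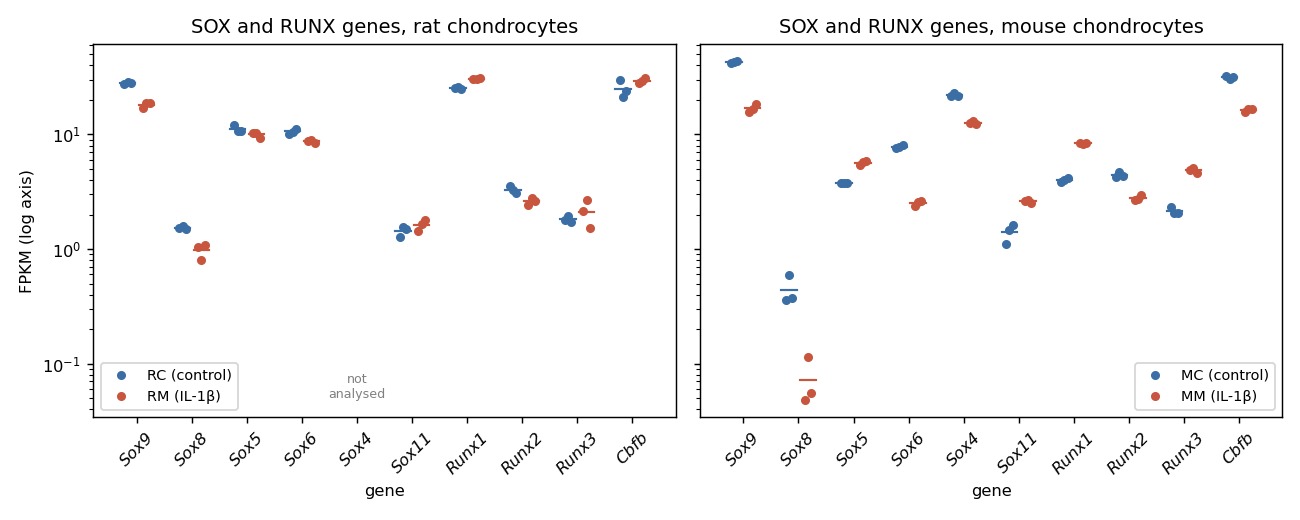
FPKM (log axis) of each member in each library, with 1 point per library and a line at the group mean, in rat (left) and mouse (right), controls in blue and IL-1β in red. In mouse the Sox6 points lie above the Sox5 points in the MC group (7.64 to 8.08 against 3.75 to 3.80) and below them in the MM group, and the points of Cbfb in rat show RC replicate 1 (30.0) apart from the other RC libraries.

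Of the RUNX genes, Runx1 was upregulated in both species. In mouse (ENSMUSG00000022952, chromosome 16, 92601466 to 92826149, minus strand) its FPKM was 3.86, 3.98 and 4.19 in the MC libraries and 8.45, 8.18 and 8.50 in the MM libraries, a 2.53-fold rise (log2 fold change 1.34, SE 0.046, adjusted P = 4.69e-36). In rat (ENSRNOG00000001704) it was 25.2, 26.1 and 24.9 in the RC libraries and 30.4, 30.5 and 30.8 in the RM libraries, a 1.19-fold rise (log2 fold change 0.25, SE 0.068, adjusted P = 0.0155). The groups did not overlap in either species. The rat call was lost without RC replicate 3 (adjusted P = 0.0583), RM replicate 1 (0.0515), RM replicate 2 (0.0645) or RM replicate 3 (0.0580), at log2 fold changes of 0.24 to 0.26. The rise in mouse exceeded that in rat by 1.09 on the log2 scale (SE 0.076, adjusted P = 1.72e-09). The antisense gene Gm26626 shares 106 exonic bases with mouse Runx1 and had 56 counts over the mouse libraries.

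Runx3 rose in mouse by the largest fitted factor among the members that rose. Its FPKM in mouse (ENSMUSG00000070691, chromosome 4, 135120652 to 135177990, plus strand) was 2.34, 2.05 and 2.08 in the MC libraries and 4.91, 5.12 and 4.65 in the MM libraries. These groups lay far apart (2.75-fold, log2 fold change 1.46, SE 0.089, adjusted P = 4.29e-23). In rat (ENSRNOG00000054217) it was 1.80, 1.96 and 1.73 in the RC libraries and 2.14, 2.67 and 1.53 in the RM libraries. The RM libraries thus lay on both sides of the RC libraries, and no change was called (log2 fold change 0.19, 95% interval -0.34 to 0.73, adjusted P = 0.570). Without RM replicate 2 the rat value was -0.023. The change in mouse exceeded that in rat by 1.27 (SE 0.22, adjusted P = 9.54e-05).

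Runx1 and Runx3 are also expressed in leukocytes, so markers of these cells were read beside them. Of a list of 7 macrophage and leukocyte markers, 6 were measured in mouse and 4 in rat, and their summed FPKM was 3.83 to 4.47 in the MC libraries and 8.54 to 10.02 in the MM libraries, and 4.51 to 5.13 in RC and 7.04 to 9.52 in RM. Most of this was Cd68, a lysosomal protein gene, at a mean FPKM of 3.52 in MC and 8.24 in MM. Csf1r, the receptor gene of a macrophage growth factor, was the other marker that could be tested. It was higher in mouse (104 counts in MC, 153 in MM, log2 fold change 0.70, adjusted P = 0.0087) and lower in rat (184 counts in RC, 81 in RM, log2 fold change -1.20, adjusted P = 0.00269), whereas Cd68 was higher in both. Summed over MC and over MM, Ptprc, which encodes the leukocyte common antigen, had 3 and 1 counts, Adgre1 had 1 and 0, and Cd79a had 20 and 29. Itgam had 0 in every mouse library. In rat, Ptprc had 20 counts in RC and 16 in RM, and Adgre1 had 18 and 23. The part of these cells in the rise of Runx1 and Runx3 was not tested.

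Runx2 was downregulated in both species, and no difference between them was called. In rat (ENSRNOG00000020193) its FPKM was 3.52, 3.27 and 3.08 in the RC libraries and 2.42, 2.79 and 2.61 in the RM libraries. In mouse (ENSMUSG00000039153, chromosome 17, 44495987 to 44814797, minus strand) it was 4.29, 4.68 and 4.32 in the MC libraries and 2.70, 2.71 and 2.94 in the MM libraries. All model libraries were below all controls. The log2 fold changes were -0.35 in rat (SE 0.10, adjusted P = 0.0206) and -0.39 in mouse (SE 0.066, adjusted P = 3.16e-07). Their difference was -0.040 with a 95% interval of -0.29 to 0.21 (adjusted P = 0.777). This depends on the scaling, since the difference was -0.34 (adjusted P = 0.0166) with library size alone and -0.27 (adjusted P = 0.0234) with limma on log2(FPKM + 1). The rat call was lost with limma (adjusted P = 0.0613) and without RM replicate 1 (0.0869) or RM replicate 3 (0.0611). The antisense gene Runx2os1 shares 519 exonic bases with mouse Runx2 and had 63 counts over the mouse libraries. Osteoblast markers were also low in the MM group, where each of the 5 had 21 counts or fewer over the group, and all 5 passed the filter on low counts only through the MC group. Their summed FPKM went from 12.3 to 12.8 in the MC libraries to 0.399 to 0.694 in the MM libraries. In rat it was 1.38 to 1.78 in RC and 0.784 to 1.39 in RM, which overlapped. Over RC and over RM, Sp7 had 45 and 15 counts, Dmp1 26 and 5, Ibsp 135 and 103, Phex 8 and 10, and Bglap 0 and 6. Of these, Ibsp was not called in rat (adjusted P = 0.226 by edgeR), and Sp7 passed the filter only through RC. The part of cells with these markers in the fall of Runx2 was not tested.

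RUNX proteins bind the letters ACCACA. The sequences below show where it stands in the members, for which RefSeq start windows of rat (build GRCr8, 250 bases before to 50 after a start) were at hand for 6 genes (8 windows). The counts are per gene and do not show which start was used, and the authors' rat build was Rnor_6.0. The motif was searched on both strands (TGTGGT on the other), and matches are in capitals. Only the more upstream windows of Runx2 and Runx3 held it.
Runx2 (chr9:23664808-23665107, plus strand): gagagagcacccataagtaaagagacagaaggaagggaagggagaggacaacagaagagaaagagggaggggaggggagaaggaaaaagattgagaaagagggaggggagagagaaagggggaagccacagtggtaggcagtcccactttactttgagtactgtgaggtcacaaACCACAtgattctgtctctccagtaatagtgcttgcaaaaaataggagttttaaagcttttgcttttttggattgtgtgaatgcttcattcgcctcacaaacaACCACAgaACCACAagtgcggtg
Runx3 (chr5:152644020-152644319, plus strand): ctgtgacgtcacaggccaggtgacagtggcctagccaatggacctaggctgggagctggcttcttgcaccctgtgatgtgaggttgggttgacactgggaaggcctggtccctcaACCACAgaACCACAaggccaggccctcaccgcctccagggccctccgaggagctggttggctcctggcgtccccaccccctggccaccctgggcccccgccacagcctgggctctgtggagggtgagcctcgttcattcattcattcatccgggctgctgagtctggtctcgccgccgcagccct
In both windows ACCACA stands in a pair of copies with the same 2 bases, ga, between them. The pair lies at positions 28 and 36 after the start in Runx2, which has a further copy at -76, and at -135 and -127 in Runx3. Of all 33469 rat windows of this length, 17.3% held at least 1 match, 2.02% at least 2 and 0.209% at least 3. The other windows of Runx2 and Runx3 and those of Runx1, Cbfb, Sox6 and Sox11 held no match. A SOX motif, AACAAT or ATTGTT on the other strand, was in 11.7% of all windows and in none of the 8, so the motifs did not overlap there.

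Cbfb, the partner of the RUNX proteins, fell in mouse, where it (ENSMUSG00000031885, chromosome 8, 105170674 to 105217989, plus strand) had an FPKM of 32.3, 30.6 and 31.5 in the MC libraries and 15.6, 16.7 and 16.8 in the MM libraries. The groups lay well apart, with a 1.59-fold fall by TMM (log2 fold change -0.67, SE 0.044, adjusted P = 2.43e-21) and -0.95 on the log2 scale with library size alone. In rat (ENSRNOG00000014647) it was 30.0, 21.3 and 23.9 in the RC libraries and 28.3, 28.9 and 30.8 in the RM libraries. RC replicate 1 lay among the RM libraries, and no change was called (log2 fold change 0.21, 95% interval -0.043 to 0.47, adjusted P = 0.179). Without RC replicate 1 Cbfb was called as higher in the RM group (log2 fold change 0.35, adjusted P = 0.00132), and without RC replicate 2 the value was 0.10 (adjusted P = 0.501). The change in mouse was lower than that in rat by 0.87 on the log2 scale (-0.87, SE 0.13, adjusted P = 1.79e-05).

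The balance within the RUNX family was also read as ratios within a library. The ratio of Runx1 to Runx2 was 0.899, 0.851 and 0.970 in the MC libraries and 3.13, 3.02 and 2.89 in the MM libraries, 3.33-fold higher with no overlap. In rat it was 7.16, 7.98 and 8.06 in the RC libraries and 12.6, 10.9 and 11.8 in the RM libraries, 1.52-fold higher with no overlap. The ratio of Sox9 to Runx2, that is of the chondrogenic to the hypertrophic factor, went down in both species. It was 9.81, 9.12 and 10.1 in MC and 5.85, 6.17 and 6.29 in MM, a 1.59-fold difference, and 7.85, 8.70 and 9.18 in RC against 7.04, 6.72 and 7.13 in RM, a 1.23-fold difference. The ratio of Sox9 to Sox4 in mouse was 1.96, 1.88 and 2.03 in MC and 1.26, 1.27 and 1.50 in MM. Each of these differences had P = 0.1 in the exact two-sided permutation test, the smallest it can give.

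**Figure D3:**
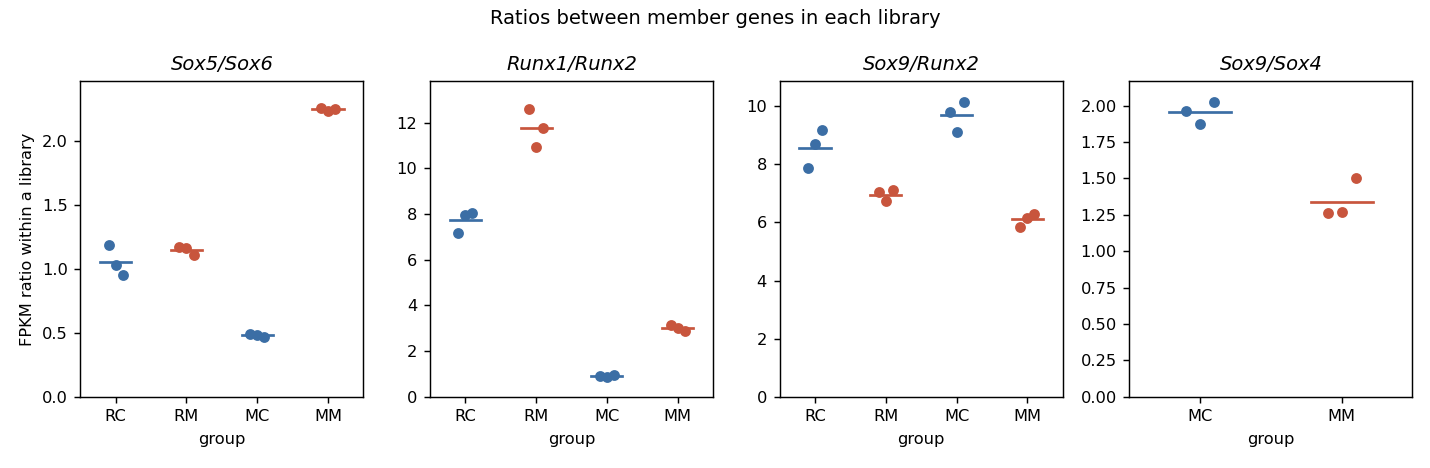
Ratio of the FPKM of a pair of members within each library (1 point per library, line at the geometric mean, axes from 0), by group, with controls in blue and IL-1β in red. The Sox5/Sox6 ratio lies between 0.470 and 0.492 in MC and between 2.23 and 2.26 in MM, whereas RC and RM overlap.

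Ordered by mean FPKM, the RC group ran from Sox9 over Runx1, Cbfb, Sox5, Sox6, Runx2, Runx3 and Sox8 to Sox11, and the libraries of Runx1 and Cbfb, of Sox5 and Sox6, and of Sox8 and Sox11 overlapped. The RC libraries of Cbfb (21.3 to 30.0) also overlapped with those of Sox9 (27.7 to 28.4). In the RM group Sox9 stood below its place in RC, with a mean of 18.1, under Runx1 (30.6) and Cbfb (29.4), which overlapped, and Runx2, Runx3 and Sox11 overlapped with their neighbours in that order. The MC group ran from Sox9 over Cbfb, Sox4, Sox6, Runx2, Runx1, Sox5, Runx3 and Sox11 to Sox8, with no overlap between neighbours. In the MM group Sox9 (mean 16.99) and Cbfb (16.4) overlapped, Sox4 followed, then Runx1, Sox5, Runx3 and Runx2, and Sox11 overlapped with Sox6. These orders rest on the gene lengths behind the FPKM, which in mouse equalled the merged exon length of GENCODE M21 for every member, from 3118 bases for Sox8 to 14832 for Sox6.

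Cartilage genes known as direct or likely targets of SOX9, SOX5 and SOX6 fell together. All 17 genes of the list were tested and called as lower in both species, against 16.8% (rat) and 37.7% (mouse) of all genes tested. Their medians were -1.36 (rat) and -3.57 (mouse) on the log2 scale, against 0.01 and -0.02 over all genes tested. In mouse 3 of them (Matn3, Snorc and Ucma) passed the filter on low counts only through MC and so had to differ. Without these 3, the mouse median lay between the values of Col11a2 (-3.27) and Matn1 (-2.72). For Col2a1, the gene of the main cartilage collagen, the log2 fold change was -1.61 (rat) and -3.57 (mouse). Acan, which encodes aggrecan, fell from a mean FPKM of 529 ± 64.6 (SD, n = 3) to 153 ± 11 in rat. In mouse it fell from 78.3 ± 2.74 to 4.22 ± 0.589, with log2 fold changes of -1.80 in rat (adjusted P = 3.11e-07 by edgeR) and -3.94 in mouse (adjusted P = 2.14e-62 by edgeR). Col11a1, a fibril collagen gene, had values of -0.84 and -2.71, Comp, a cartilage matrix protein gene, of -1.35 and -2.57, and Col9a3 of -0.90 and -1.38. All 5 of these genes fell more in mouse, with differences of -0.47 for Col9a3 to -2.13 for Acan and a largest adjusted P of 7.25e-06. The smallest falls of the list were those of Chadl, -0.71 in rat and -0.44 in mouse, and the largest were those of Col27a1 in rat (-2.42) and Ucma in mouse (-7.13). These 3 genes were named after their values were seen. Chondrocyte identity markers, of which 8 of 8 are also in this list, were all detected, and their summed FPKM went from 3978 to 4615 in the RC libraries to 1388 to 1438 in the RM libraries, and from 1864 to 1929 in MC to 128 to 134 in MM. Markers of other cells moved beside them. Of 6 fibroblast markers, 1 was called higher and 2 lower in rat, and 3 higher and 3 lower in mouse. Over all genes tested, 35.1% were called in rat and 75.0% in mouse. The mouse direction of Col3a1 and Pdgfra, 0.16 and 0.26 on the log2 scale with TMM, depends on the scaling. Their mean FPKM, scaled by library size, was 339 and 26.4 in MC and 313 and 26.0 in MM. The summed FPKM of the 6 markers was 3660 to 4195 in RC, 2329 to 2450 in RM, 2283 to 2311 in MC and 1495 to 1509 in MM. Dcn, the gene of the matrix protein decorin, rose by 2.27 in rat and 4.99 in mouse on the log2 scale, whereas Col1a1 had -0.90 and -1.48, and Thy1 and Dpt had -1.56 and -3.06 in mouse. The summed FPKM of 4 muscle markers was 3.15 to 4.18 in RC, 2.67 to 3.05 in RM, 3.73 to 4.30 in MC and 0.373 to 0.712 in MM. The part of these cells in the fall of the SOX targets was not tested.

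The list of RUNX targets split in both species. Of its 12 genes, 9 were tested in rat and 11 in mouse. In rat 4 were higher, 3 lower and 2 not called, against 18.3% higher and 16.8% lower over all genes. In mouse 4 were higher and 7 lower, against 37.4% and 37.7% over all genes. The median log2 fold change was -0.32 in rat and -1.43 in mouse. The mouse median was the same with Dmp1, which had 0 counts in the MM group, set at the limit of 3 counts. The sign of both medians depends on genes that passed the filter on low counts only through 1 group, named below. Among the genes that passed it through both groups, the middle value was that of Vegfa in each species, 0.98 in rat and 3.17 in mouse. The same 4 genes rose in both, and they encode secreted or matrix-degrading proteins: Mmp13 (collagenase 3), Mmp9 (gelatinase B), Spp1 (osteopontin) and Vegfa (a growth factor for vessels). Log2 fold changes in rat and then mouse were 3.03 and 4.96 for Mmp13, 1.03 and 3.65 for Spp1, and 0.98 and 3.17 for Vegfa. Alpl, the phosphatase of mineralizing cells, fell from a mean FPKM of 7.22 ± 0.543 (SD, n = 3) to 1.45 ± 0.173 in rat, and in mouse from 4.20 ± 0.259 to 1.29 ± 0.106. Its log2 fold changes were -2.32 (adjusted P = 6.79e-07 by edgeR) and -1.43 (adjusted P = 1.75e-17 by edgeR), and the fall was larger in rat (difference 0.90, adjusted P = 0.000167). Col10a1, the collagen gene of hypertrophic chondrocytes, fell in mouse from 18.4 ± 0.228 to 5.67 ± 0.328 (log2 fold change -1.43, adjusted P = 1.10e-29 by edgeR) and was not called in rat (1.02 ± 0.391 and 0.829 ± 0.336, adjusted P = 0.534 by edgeR). In rat Sp7 and Ihh, a bone cell factor and a growth plate signal, were the other genes called as lower. They had 45 and 50 counts in RC but 15 and 3 in RM, and both passed the filter on low counts only through RC. In mouse, 5 of the 7 genes called as lower (Ibsp, Bglap, Sp7, Phex and Dmp1) passed it only through MC, and Mmp9 only through MM, so that these had to differ.

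**Figure D4:**
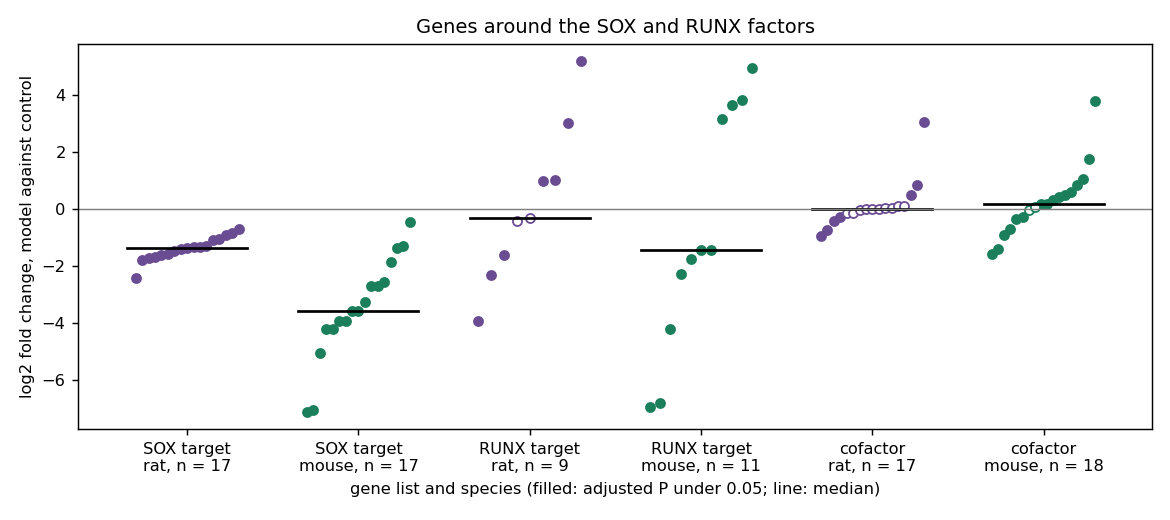
Log2 fold change of the model against the control group for each tested gene of the SOX target, RUNX target and cofactor lists, in rat (purple) and mouse (green). Filled points have an adjusted P under 0.05. Lines are medians over all tested genes, also those that passed the filter on low counts only through 1 group. Every SOX target lies below 0 in both species (medians -1.36 and -3.57), whereas the RUNX targets lie on both sides of 0.

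Cofactors that bind SOX9 or RUNX proteins changed less uniformly. Of 19 genes, 17 were tested in rat and 18 in mouse. In rat 3 were higher, 4 lower and 10 not called, against 18.3% higher and 16.8% lower over all genes. In mouse 10 were higher, 6 lower and 2 not called, against 37.4% higher and 37.7% lower over all genes. The median log2 fold change was 0.01 in rat and 0.17 in mouse. Tle5, a short relative of the Groucho corepressors, had values of 0.05 (adjusted P = 0.676 by edgeR) in rat and 0.17 (adjusted P = 3.72e-06 by edgeR) in mouse. The mouse direction depends on the scaling, since the mean FPKM of Tle5, scaled by library size, was 79.8 in MC and 73.8 in MM. The transcriptional coactivator genes Wwtr1 and Yap1 rose in mouse by 0.84 and 0.32 with TMM (Yap1 from a mean FPKM of 16.1 to 16.7) and had -0.04 and 0.01 in rat, where neither was called, and both differences between the species passed the test (0.88 and 0.32, adjusted P = 9.25e-08 and 0.000651 by edgeR). In rat, the genes called as higher were Twist2, Arid5a and Arid5b and those called as lower were Tle2, Tle3, Runx1t1 and Wwp2, named after their values were seen. Of these 7 genes, Tle3 alone was not called in mouse (-0.29 in rat, -0.04 in mouse), and the other 6 were called in the same direction there. Wwp2, a ubiquitin ligase gene whose protein acts with SOX9, had -0.95 (rat) and -1.58 (mouse), Arid5b, a SOX9 coactivator gene, had 0.51 and 0.60, and Twist2, which encodes a RUNX2 antagonist, had 3.05 and 3.81.

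Among 13 other SOX genes, 9 were measured in rat and 11 in mouse, and 3 passed the filter on low counts in each species. Sox12, a SOXC gene like Sox4 and Sox11, was the most abundant, with a mean FPKM of 12.1 ± 0.708 (SD, n = 3) in RC and 13.3 ± 1.59 in RM. In mouse Sox12 fell from 7.84 ± 0.283 to 4.98 ± 0.483, which is -0.37 on the log2 scale (adjusted P = 5.14e-06 by edgeR). Sox13, a SOXD gene like Sox5 and Sox6, fell in mouse by 1.51 on the log2 scale (adjusted P = 1.42e-06) and had a value of 0.32 in rat (adjusted P = 0.300). Sox7, a gene of vascular cells, had 20 counts in RC and 81 in RM (log2 fold change 1.95, adjusted P = 0.0171, but it passed the filter on low counts only through RM) and 0.16 in mouse (adjusted P = 0.639). Endothelial markers were near 0, with a summed FPKM of at most 0.505 in any library.

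The shared genes whose course over the 12 libraries was nearest to that of Sox9, by the root mean square difference of log2 CPM centred within each species, were Thbs2 (0.0670), Copz2 (0.0679) and Col6a1 (0.0717) of 10912 genes compared. For Runx2 they were Lix1l (0.0642), Plce1 (0.0665) and Pacsin2 (0.0687). Thbs2 and Col6a1 encode matrix proteins, and Copz2 a coat protein of vesicles. The log2 fold changes of Thbs2 were -0.64 in rat and -1.01 in mouse, close to those of Sox9, and those of Plce1 were -0.36 and -0.45, close to those of Runx2. The libraries fall into 2 groups per species, so this likeness mostly reads the size of the change with IL-1β.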

How the data were processed

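Gene tables of 12 RNA-seq libraries (RC, RM, MC and MM, 3 of each) were analysed, with groups and replicate numbers taken from the sample titles. The authors deposited raw counts per Ensembl gene, and FPKM values that they made from these counts. Dividing each count of at least 10 by a whole-number length and the library total returned the deposited FPKM within 0.1% for 100% of values. The submitters' processing notes name HISAT2, HTSeq 0.11.2, GRCm38 and Rnor_6.0, without saying what each was used for. Neither the annotation release nor the strand setting is given in the sources used here.

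Counts were tested in R 4.3.3 with edgeR 4.0.16 (filterByExpr, TMM, glmQLFit and glmQLFTest), each species by itself, at an adjusted P of 0.05. The difference between the species was tested over the genes shared by symbol that passed the filter in both (10912 of 14351), keeping each species' own TMM-scaled library sizes. Standard errors and 95% intervals come from the fit. DESeq2 1.42.0, limma 3.58.1 on log2(FPKM + 1), other scalings, no filter, each library left out and a replicate block were alternatives. The tests by edgeR, DESeq2 and limma were checked on simulated counts. These had the same spread for all genes of a species and 200 changed genes in each, far fewer than were called here. False calls by edgeR were 4.31% of the calls in rat, 2.44% in mouse and 4.01% for the difference. By DESeq2 they were 6.16%, 1.485% and 5.76%, and by limma 5.71%, 3.90% and 5.18%. Replicates differed by more than sampling noise in every group (chi-square per degree of freedom 1.98 to 32.2).

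The members and lists were chosen with earlier results of these data known. All members were named, together with the 5 most abundant SOX and RUNX targets, the 3 most abundant cofactors and other SOX genes, and the 3 genes nearest in course to Sox9 and to Runx2. Mouse coordinates are from GENCODE M21, and start sequences are from RefSeq.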

Additional observations from a re-analysis of the deposited data

Results flagged for a closer look

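The change with IL-1β differed between the species for 8 of the 9 members tested in both, by the test of the difference itself (change in mouse minus change in rat, edgeR, adjusted over all shared genes). The log2 difference was above 0 for Runx3 (1.27), Runx1 (1.09), Sox5 (1.04) and Sox11 (1.00). It was below 0 for Sox9 (-0.40), Cbfb (-0.87), Sox6 (-1.06) and Sox8 (-1.59). In mouse Sox8 passed the filter on low counts only through the MC group. Its difference was not called by limma on log2(FPKM + 1) (-0.055, adjusted P = 0.651). Of all shared genes, 31.6% differed upward and 32.2% downward by the same test, so differences between the species were common.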

How the results depend on the processing

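No direction of a called member was reversed by RLE size factors, library size alone, no filter, DESeq2, limma, the replicate block or leaving out 1 library. With the DEG criteria in place of the adjusted P, 1136 genes were called in rat and 3781 in mouse, 0 and 6 members, and 3130 genes for the difference between the species. When 1 library was left out, the number of members called in rat ran from 2 (without RM replicate 3) to 6 (without RC replicate 1). It was 3 without RC replicate 3, RM replicate 1 or RM replicate 2, and it stayed at 10 in mouse and 8 for the difference. The calls over all rat genes also swung, from 3303 to 6251, with 3741 of 13461 without RM replicate 3 and 6251 of 13431 without RC replicate 1. In mouse 10824 to 10937 genes were called, and 6590 to 7536 for the difference. Of the uncalled values, Runx3 in rat (-0.023 to 0.38) and the difference for Runx2 (-0.090 to 0.015) crossed 0, whereas Sox5, Sox11 and Cbfb in rat did not. With FPKM + 1 the mouse log2 ratios moved to -0.77 for Sox9/Runx2, 1.81 for Sox5/Sox6 and 1.43 for Runx1/Runx2, since the added value by construction weighs more on low FPKM. The replicate block called 4534 genes in rat, 11047 in mouse and 6802 for the difference, with 5, 10 and 8 members, and changed no call of a member. Whether the numbers pair the libraries is not given, and deviations from means of 3 libraries cannot settle it. The deviations of libraries with the same number correlated at -0.0977 to 0.0849 in rat and 0.00124 to 0.0149 in mouse. Of all pairs, the highest correlation was 0.162 in rat (RC replicate 1 with RM replicate 2) and 0.0149 in mouse (MC replicate 2 with MM replicate 2). Depth limits Sox8 in mouse, which had 13 counts over the MM group.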
